A study of Mus musculus with 6 samples.

Results

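The genes described here are 10 mouse genes of squamous differentiation, the programme by which a stratified epithelium turns basal cells into flattened, toughened surface cells. They were chosen by symbol and not by a threshold on their values: Krt4, Krt13, Krt10, Ivl, Sprr1a, Sprr1b, Sprr3, Tgm1, Sbsn and Ppl. All 10 were found among the 51912 gene IDs of the deposited table, and 6 of them reached a mean of 1 TPM, the minimum for the test across genes. RNA was sequenced in bulk from bladder tumor organoids, small cultures grown in 3 dimensions from tumor cells, of C57BL/6 mice. There were 3 libraries of organoids that received SRT1720, a compound developed to activate the SIRT1 deacetylase, and 3 libraries of organoids given vehicle. The labels give no dose, duration, tumor model or age, and do not say whether replicates were separate cultures or animals. The p-values therefore cover the spread between these libraries, which may be technical. The title of the series places SRT1720 on bladder cancer growth through SIRT1 and the hypoxia-inducible factors. The comparison below asks whether the mRNA of squamous genes differed with treatment.

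The normal urothelium of the bladder is not keratinized. Squamous differentiation is known there as a feature of some bladder cancers and of chronic injury, and it is usually read from paired suprabasal keratins, from precursors of the cornified envelope and from the enzyme that joins them. Keratins form filaments as pairs of one type I and one type II protein. The cornified envelope is a sheet of proteins such as involucrin, the small proline-rich proteins and periplakin, crosslinked by transglutaminase under the plasma membrane.

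Between 19490848 and 24334702 reads were recovered for each library. The summed level of 8 epithelial markers, Epcam and Cdh1 among them, was 261 to 637 TPM with SRT1720 and 203 to 454 TPM with vehicle. One of the 8, the tight junction gene Cldn7, was at 0.170 TPM in SRT1720 2 and 0.207 TPM in Vehicle 1, and at 13.3 to 21.9 TPM in the other 4 libraries. The libraries were unlike within each group. Krt5 and Krt14, the keratin pair of basal cells, were low in SRT1720 1 and Vehicle 2. Krt5 was at 16.4, 616 and 1120 TPM in SRT1720 libraries 1, 2 and 3 and at 425, 9.61 and 741 TPM in Vehicle libraries 1, 2 and 3. Krt14 was at 18.7, 443 and 693 TPM with SRT1720 and at 307, 18.9 and 290 TPM with vehicle. Across the 9281 other tested genes, SRT1720 1 resembled Vehicle 2 most (Pearson r = 0.42, deviations from the gene means) and SRT1720 3 resembled Vehicle 3 most (r = 0.43). Vehicle 1 resembled SRT1720 2 most (r = 0.17), while SRT1720 2 was nearest to SRT1720 3 (r = 0.19). These are correlations across genes of libraries that share the same gene means, and are given as a description.

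Of the 10 members, 4 lie in the epidermal differentiation complex, a cluster of genes for cornified envelope proteins. Sprr1b, Sprr3, Sprr1a and Ivl fall within 137 kb at chr3:92436809-92573735 (GRCm38), all on the minus strand. Their start regions are shown because these neighbouring genes ranked the libraries in different orders. RefSeq windows on GRCm38 were found for 8 of the 10 members. The 250 bases before the RefSeq start site are given 5′ to 3′ on the gene's strand, with capitals for the letters TGACTCA or their reverse complement TGAGTCA, a motif known to be bound by AP-1 factors, for TATAAA, the TATA box letters, and for CACACCC or its reverse complement GGGTGTG, letters known from KLF factor sites.
Sprr1a (chr3:92485882-92486131): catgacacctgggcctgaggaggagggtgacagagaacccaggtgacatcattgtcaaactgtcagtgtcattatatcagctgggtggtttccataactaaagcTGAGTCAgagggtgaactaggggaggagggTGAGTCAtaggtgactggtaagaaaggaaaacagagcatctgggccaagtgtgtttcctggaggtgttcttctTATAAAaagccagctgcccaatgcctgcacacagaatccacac
Ivl (chr3:92573736-92573985): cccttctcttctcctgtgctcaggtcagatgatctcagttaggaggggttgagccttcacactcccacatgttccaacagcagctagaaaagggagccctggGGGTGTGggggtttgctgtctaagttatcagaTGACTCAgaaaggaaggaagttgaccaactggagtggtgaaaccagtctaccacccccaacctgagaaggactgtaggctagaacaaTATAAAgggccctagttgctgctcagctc
Sprr1b (chr3:92438780-92439029): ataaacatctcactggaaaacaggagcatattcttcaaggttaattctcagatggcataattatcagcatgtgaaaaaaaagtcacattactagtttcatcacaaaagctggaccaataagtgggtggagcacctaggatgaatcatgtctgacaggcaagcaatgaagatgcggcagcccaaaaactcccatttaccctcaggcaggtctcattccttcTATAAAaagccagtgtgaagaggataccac
Sprr3 (chr3:92458721-92458970): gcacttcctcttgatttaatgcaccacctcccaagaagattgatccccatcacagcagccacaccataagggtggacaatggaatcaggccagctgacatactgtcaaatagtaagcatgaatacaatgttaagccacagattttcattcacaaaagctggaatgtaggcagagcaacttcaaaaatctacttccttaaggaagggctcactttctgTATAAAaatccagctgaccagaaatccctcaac
The Sprr1a window held the AP-1 letters at 2 places, 146 to 140 and 116 to 110 bases before the start, and the Ivl window at 1 place, also 116 to 110 bases before it. The windows of Sprr1b and Sprr3 held none of them, and GGGTGTG stood in the Ivl window alone of these 4. For Sprr1a and Sprr1b, GENCODE places the start a few bases inside the window shown. All 4 held TATAAA, between 43 and 24 bases before the start. Among 32851 RefSeq windows of the same length, 4.46% held the AP-1 letters on either strand, 12.4% TATAAA and 6.93% CACACCC. These matches describe letters and not bound sites.

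Krt4 and Krt13 encode the type II and type I keratins that pair in the suprabasal layers of non-keratinized squamous epithelium such as the esophagus. Krt13 (ENSMUSG00000044041, chromosome 11, 100117327 to 100121566) was at 0.561, 89.4 and 2.09 TPM in SRT1720 libraries 1, 2 and 3. It was at 47.7, 0.0626 and 0.196 TPM in Vehicle libraries 1, 2 and 3. One library of each group was high, SRT1720 2 and Vehicle 1, and the other 4 were at or below 2.09 TPM, so the groups overlapped. The recovered reads behind these values were 11964 in SRT1720 2 and 6669 in Vehicle 1, and as few as 7 in Vehicle 2. Within the SRT1720 group the highest library exceeded the lowest 159-fold, and within the Vehicle group 762-fold. Krt13 averaged 30.7 ± 50.9 TPM with SRT1720 and 15.98 ± 27.5 TPM with vehicle (SD, n = 3 each).

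Krt4 (ENSMUSG00000059668, chromosome 15, 101918535 to 101924735) had a similar high pair. It was at 8.68, 55.1 and 0.903 TPM in SRT1720 libraries 1, 2 and 3 and at 22.5, 5.74 and 0.710 TPM in Vehicle libraries 1, 2 and 3. SRT1720 2 and Vehicle 1 were again the highest libraries. Unlike for Krt13, the middle libraries were SRT1720 1 and Vehicle 2, and the lowest were SRT1720 3 and Vehicle 3. The levels of this keratin pair were therefore far from equal in SRT1720 1 and Vehicle 2, where Krt4 was at 8.68 and 5.74 TPM and Krt13 at 0.561 and 0.0626 TPM.

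The libraries high in Krt13 and Krt4 were also the highest in the summed markers of leukocytes and of fibroblasts. In those libraries 1 gene, Lyz2, made up most of the leukocyte sum. The summed level of 10 leukocyte markers was 1.37, 11.7 and 1.04 TPM in SRT1720 libraries 1, 2 and 3 and 16.1, 1.99 and 3.12 TPM in Vehicle libraries 1, 2 and 3. Of these, 2 genes reached a mean of 1 TPM, the defining marker Ptprc had a highest value of 0.0129 TPM, in Vehicle 1, and Cd3e and Cd3d were at 0 in every library. Lyz2, a lysozyme gene of myeloid cells, was at 10.5 TPM in SRT1720 2 and 14.3 TPM in Vehicle 1 and at 0 TPM in the other 4 libraries. Cd68, a macrophage lysosomal protein gene and the other of these 2, was lowest of its group in the same libraries, at 1.31, 0.730 and 1.03 TPM with SRT1720 and 1.45, 1.92 and 3.09 TPM with vehicle. The sum of 10 fibroblast markers was 0.0708 to 2.83 TPM with SRT1720, highest in SRT1720 2, and 0.225 to 4.20 TPM with vehicle, highest in Vehicle 1. None of them reached a mean of 1 TPM. Of 6 smooth muscle markers and 7 endothelial markers none did either, and the highest sums were 4.34 TPM, for smooth muscle in Vehicle 3, and 0.0376 TPM, for endothelium in SRT1720 1. Their part in the keratin values was not tested. In bulk samples, fewer cells of a type and less RNA per cell cannot be told apart.

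Krt10, the type I keratin of keratinizing epidermis, was low and even. It was at 0.754, 0.535 and 0.541 TPM with SRT1720 and at 0.512, 0.752 and 0.432 TPM with vehicle. The highest of the 6 libraries exceeded the lowest 1.74-fold, and 59 to 108 reads lay behind each value. Krt10 overlaps the gene Gm11940, which shares 2.37% of its 50-base stretches. Its usual type II partner, Krt1, had a highest value of 0.225 TPM, in SRT1720 2.

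**Figure D1:**
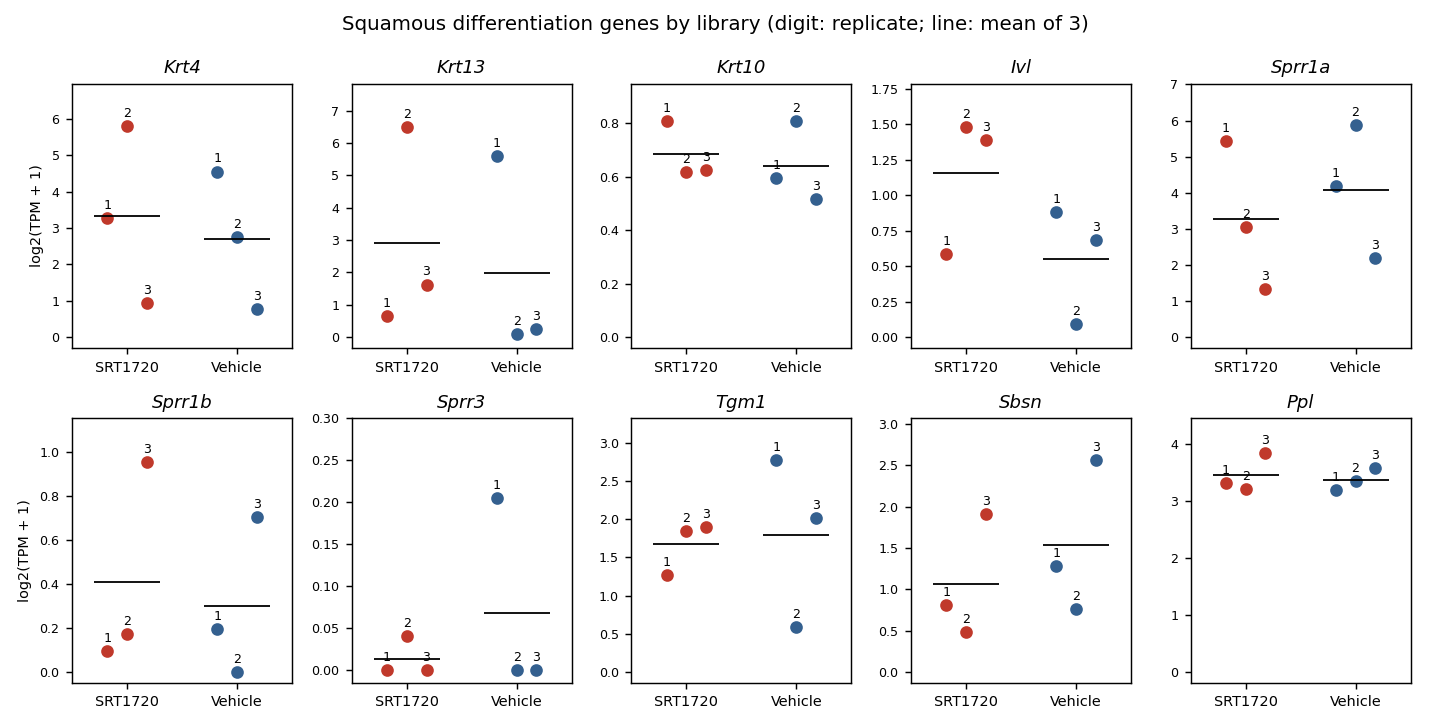
Level of each squamous differentiation gene, as log2(TPM + 1) on the vertical axis, in the 3 SRT1720 libraries (red) and the 3 Vehicle libraries (blue). Points are libraries marked with their replicate number, lines are group means, and each panel has its own scale. SRT1720 2 and Vehicle 1 were the highest libraries for Krt13 and Krt4, at 89.4 and 47.7 TPM for Krt13, and the groups overlapped for every gene.

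Sprr1a, a small proline-rich envelope precursor (ENSMUSG00000050359), was the most abundant envelope gene of the list and ranked the libraries in another order. It was at 41.9, 7.29 and 1.51 TPM in SRT1720 libraries 1, 2 and 3 and at 17.1, 57.9 and 3.57 TPM in Vehicle libraries 1, 2 and 3. The highest libraries were SRT1720 1 and Vehicle 2, those lowest in Krt5, and the lowest were SRT1720 3 and Vehicle 3. The range across libraries was 38.4-fold, on 67 to 2199 reads.

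Sprr1b, its close relative, had nearly the opposite order on far fewer reads. It was at 0.0669, 0.128 and 0.940 TPM in SRT1720 libraries 1, 2 and 3 and at 0.143, 0 and 0.632 TPM in Vehicle libraries 1, 2 and 3. The highest libraries were SRT1720 3 and Vehicle 3, with 43 and 27 reads, against 0 to 7 reads in the others. A count of 0 in Vehicle 2 allows up to 0.0767 TPM, the value of 3 reads. No stretch of 50 bases in the annotated transcripts of Sprr1a, Sprr1b or Sprr3 occurred in a transcript of another gene.

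Sprr3, a proline-rich protein of the esophagus and oral mucosa, was close to the limit of detection. It had 0, 2 and 0 reads with SRT1720 and 11, 0 and 0 reads with vehicle. The reads came from SRT1720 2 and Vehicle 1, the libraries high in Krt13. In the 4 libraries at 0, a count of 0 allows 0.0446 to 0.0521 TPM.

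Ivl, which encodes the envelope precursor involucrin, was at 0.5005, 1.80 and 1.62 TPM in SRT1720 libraries 1, 2 and 3. It was at 0.848, 0.0662 and 0.606 TPM in Vehicle libraries 1, 2 and 3. SRT1720 2 and 3 were above every Vehicle library and SRT1720 1 was below Vehicle 1 and Vehicle 3. Its mean of 0.907 TPM kept it out of the test across genes, and the exact permutation test of its difference gave p = 0.3 (two-sided). With 3 libraries against 3 the smallest p is 0.1.

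The chromosome that carries these 4 genes was uneven between libraries. The median log2 deviation of 406 tested chromosome 3 genes from their group means was −0.39 in SRT1720 3 and −0.41 in Vehicle 3, and 0.13 to 0.26 in the other 4 libraries. For 8862 tested genes on other chromosomes the medians lay between −0.04 and 0.04. Sprr1a was lowest in SRT1720 3 and Vehicle 3, whereas Sprr1b was highest there. Sprr2a1, of the same complex, deviated by 1.25 in SRT1720 3 and 1.17 in Vehicle 3 (log2). It was not high in these alone, with 0.85 in SRT1720 2 and 1.26 in Vehicle 1. Its low libraries were SRT1720 1 (−2.10) and Vehicle 2 (−2.44). The summed mitochondrial ribosomal RNA was highest in SRT1720 3 and Vehicle 3, with 702 TPM for SRT1720 3, 1562 TPM for Vehicle 3 and 135 to 198 TPM for the other 4. The part of either in the Sprr values was not tested.

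Tgm1, the membrane-bound transglutaminase that crosslinks the envelope (ENSMUSG00000022218, chromosome 14), was at 1.40, 2.5996 and 2.72 TPM in SRT1720 libraries 1, 2 and 3. It was at 5.87, 0.498 and 3.05 TPM in Vehicle libraries 1, 2 and 3. All 3 SRT1720 libraries lay inside the range of the Vehicle libraries. The Vehicle range was 11.8-fold and the SRT1720 range 1.94-fold. Tgm1 shares 4.18% of its 50-base stretches with the gene Gm49067.

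Sbsn encodes suprabasin, a secreted protein of suprabasal keratinocytes (ENSMUSG00000046056, chromosome 7). It was at 0.755, 0.392 and 2.76 TPM in SRT1720 libraries 1, 2 and 3 and at 1.42, 0.695 and 4.92 TPM in Vehicle libraries 1, 2 and 3. SRT1720 3 and Vehicle 3 were the high libraries. Sbsn overlaps the gene Tmem147os, which shares 6.96% of its 50-base stretches, so part of its reads is uncertain. Dmkn, which lies in the same complex of secreted epidermal genes as Sbsn and was picked out after its values were seen, was at 0.376, 0.871 and 24.5 TPM with SRT1720 and 2.05, 0.121 and 25.3 TPM with vehicle. It was high in the same libraries, as was Krtdap, at 0, 2.05 and 13.2 TPM with SRT1720 and 1.495, 0 and 4.20 TPM with vehicle.

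Ppl, which encodes periplakin, a plakin that links the envelope to keratin filaments (ENSMUSG00000039457, chromosome 16), was the steadiest member that was tested. It was at 8.94, 8.27 and 13.2 TPM with SRT1720 and at 8.06, 9.20 and 10.9 TPM with vehicle. The range across all 6 libraries was 1.64-fold. Ppl averaged 10.1 ± 2.69 TPM with SRT1720 and 9.37 ± 1.40 TPM with vehicle (SD, n = 3 each).

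Between groups, none of the 6 tested members passed limma's test on log2(TPM + 1) with Benjamini-Hochberg adjustment over 9287 genes, of which 0% passed. At an unadjusted p under 0.05 limma gave 1153 genes (12.4%) and 0 members, and voom on the recovered reads gave 0 genes adjusted and 1131 unadjusted. Libraries did not overlap between groups for 19.9% of all tested genes, 12.1% higher and 7.75% lower with SRT1720, and for 0 of the 10 members. Log2 fold changes were above 0 for 3 and below 0 for 3 tested members, against 54.8% above 0 over all tested genes. The members' median was −0.02, beside 0.04 for all tested genes.

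The intervals of these differences were wide. Krt13 had a log2 fold change of 0.94 (SE 1.98, 95% interval −3.77 to 5.65, limma adjusted p = 0.899) and Krt4 one of 0.64 (SE 1.38, −2.64 to 3.93, limma adjusted p = 0.901). Sprr1a had −0.81 (SE 1.24, −3.76 to 2.13, limma adjusted p = 0.848). Sbsn had −0.47 (SE 0.54, −1.76 to 0.83, limma adjusted p = 0.791). For Tgm1 the value was −0.12, with an interval of −1.394 to 1.147, and for Ppl it was 0.09, with an interval of −0.44 to 0.61. A log2 fold change of 1 in at least one direction therefore lay inside the interval for the tested members other than Ppl. For the members below the minimum, the differences of mean log2(TPM + 1) were 0.60 for Ivl, 0.11 for Sprr1b, 0.04 for Krt10 and −0.05 for Sprr3, with exact permutation p = 0.3, 0.7, 0.5 and 1.0.

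**Figure D2:**
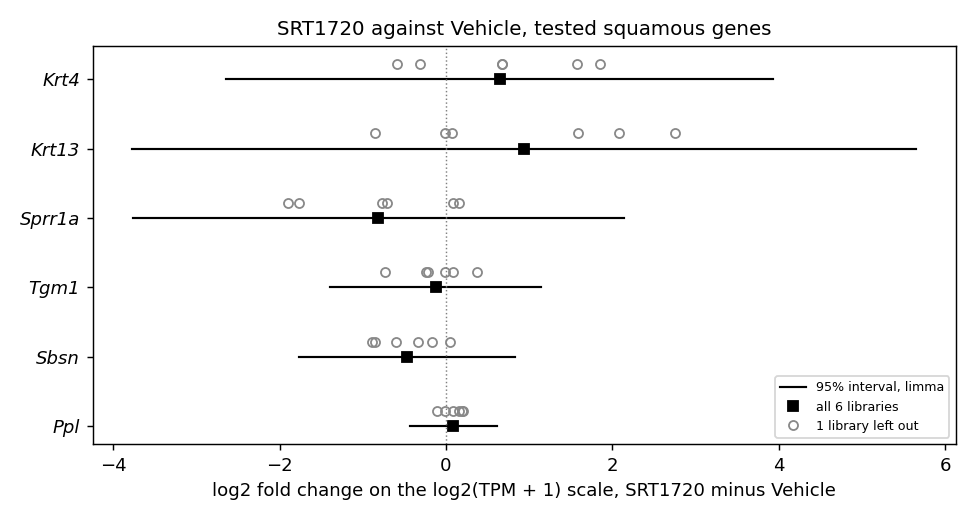
Log2 fold change of the 6 tested squamous genes on the log2(TPM + 1) scale, SRT1720 minus Vehicle, on the horizontal axis. Squares use all 6 libraries with limma's 95% interval as a bar, and open circles leave out 1 library each. Every interval includes 0, from −3.77 to 5.65 for Krt13 and from −0.44 to 0.61 for Ppl, and each gene has circles on both sides of 0.

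For every tested member, the sign of the difference changed when 1 library or another was left out. Without SRT1720 2, Krt13 had a log2 fold change of −0.85 and Krt4 one of −0.59. Without Vehicle 3, Krt4 had −0.32 and Sbsn 0.05. Sprr1a had 0.16 without SRT1720 3 and 0.08 without Vehicle 2, and Tgm1 had 0.37 without Vehicle 1. Ppl had −0.10 without SRT1720 3.

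The within-group spread was above the median of all tested genes for every tested member. The SD of log2(TPM + 1) within groups was 3.14 for Krt13, which ranked 4 of 9287 from the most variable, 2.18 for Krt4 (rank 21) and 1.95 for Sprr1a (rank 30). It was 0.84 for Sbsn (rank 388) and 0.83 for Tgm1 (rank 407), and 0.27 for Ppl, near the median of 0.25 over all tested genes.

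Other genes of the squamous programme were read from fixed lists, and no gene of them passed limma's adjusted test in either direction. Of 36 other cornified envelope genes, 11 were tested, with 7 above 0 and a median of 0.20 on the log2 scale. Genes of the late, keratinizing envelope were low. Lor, which encodes loricrin, was at 0.417 to 0.563 TPM across the 6 libraries, Hrnr was listed at 0 and Flg reached 0.021 TPM, and 24 of the 36 stayed under 1 TPM in every library. Sprr2a1, another proline-rich envelope gene of chromosome 3, was abundant, at 15.2, 125 and 164 TPM in SRT1720 libraries 1, 2 and 3 and 114, 7.83 and 107 TPM in Vehicle libraries 1, 2 and 3. It was low in SRT1720 1 and Vehicle 2, where its relative Sprr1a was high. Sprr2a1 and Sprr2a2 share 96.3% and 96.5% of their 50-base stretches with other genes, so reads could be split among the copies. Crct1, also of this complex, was at 1.30, 0.422 and 0.185 TPM with SRT1720 and 0.490, 13.9 and 0.132 TPM with vehicle.

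Of 16 other keratins of stratified epithelium, 8 were tested, with 7 above 0 and a median of 0.54, beside 54.8% above 0 over all tested genes. All of the 8 but Krt80 were lowest in SRT1720 1 and Vehicle 2 within their groups, so their signs are not independent. Krt15, a keratin of basal cells, was at 0.379, 138 and 1.58 TPM in SRT1720 libraries 1, 2 and 3 and at 58.5, 0.311 and 1.12 TPM in Vehicle libraries 1, 2 and 3. Its high libraries were those of Krt13. Krt6a and Krt16, keratins of activated and injured epithelium, were instead low in SRT1720 1 and Vehicle 2, as Krt5 was. Krt6a was at 27.05, 370.5 and 550.4 TPM with SRT1720 and at 395, 11.01 and 372 TPM with vehicle. Krt16 was at 4.94, 51.7 and 55.3 TPM with SRT1720 and at 55.0, 1.60 and 21.6 TPM with vehicle.

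**Figure D3:**
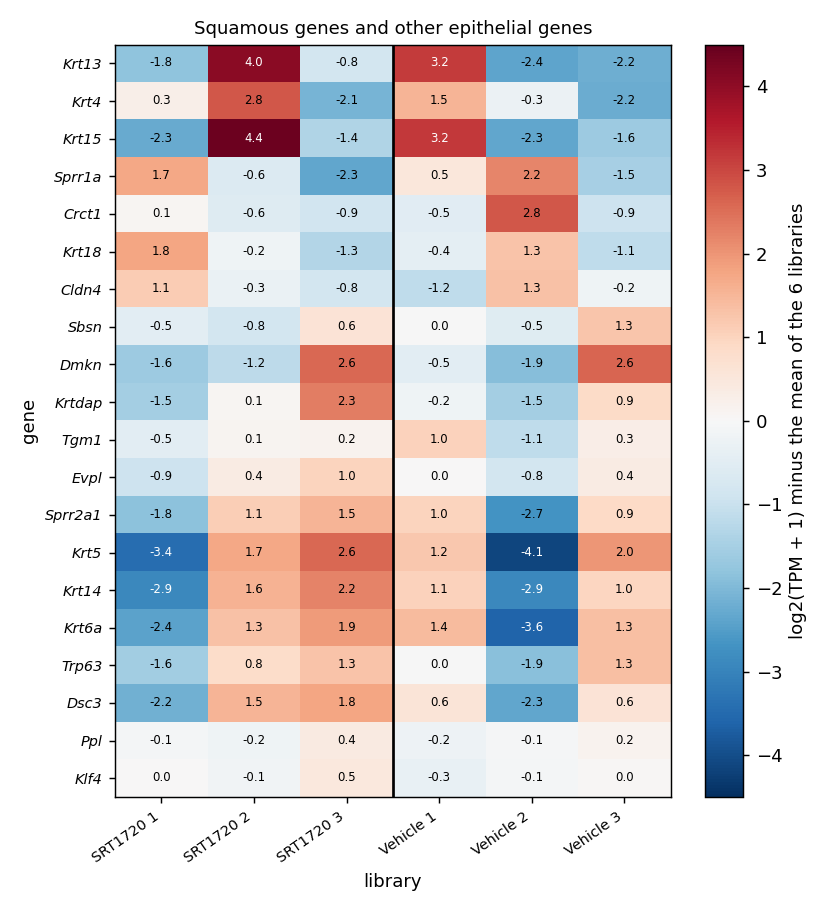
Log2(TPM + 1) of squamous and other epithelial genes (rows) in each library (columns, SRT1720 left of the line and Vehicle right of it), minus the mean of the 6 libraries, with the value printed in each cell. Rows were chosen after values were seen, so the blocks are a description. Krt13 and Krt15 are high in SRT1720 2 and Vehicle 1, Sprr1a in SRT1720 1 and Vehicle 2, and Sbsn and Dmkn in SRT1720 3 and Vehicle 3.

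Among surface and adhesion genes of suprabasal cells, 15 of 24 were tested, with 13 above 0 and a median of 0.33 on the log2 scale. Over all tested genes 54.8% were above 0. All but Mal, Ly6d, Dsg2 and Cldn4 of the 15 were lowest in SRT1720 1 and Vehicle 2 and highest in SRT1720 3 and Vehicle 3 within their groups. Their signs are therefore not independent. Aqp3, a water and glycerol channel, was at 1.35, 8.58 and 62.5 TPM in SRT1720 libraries 1, 2 and 3 and at 2.71, 0.274 and 28.2 TPM in Vehicle libraries 1, 2 and 3. Its high libraries were those of Sbsn. In the list of crosslinking enzymes, proteases and their inhibitors, 6 of 24 were tested, with 2 above 0 and a median of −0.03. Tgm3 and Tgm5, other transglutaminases of the epidermis, stayed under 1 TPM in every library and were not tested. Tgm5 was at 0.620, 0.261 and 0.806 TPM with SRT1720 and at 0.0438, 0.0930 and 0.130 TPM with vehicle. Its libraries did not overlap between groups, which held with SRT1720 higher for 12.1% of all tested genes. That share leaves out genes below the minimum, as Tgm5 was, and none was computed for them. Tgm5 was picked out after its values were seen. All 13 S100 genes listed lie on chromosome 3. Of them, 8 were tested, with 5 above 0 and a median of 0.21.

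Regulators of squamous differentiation gave 31 tested genes of 39, with 14 above 0 and a median of −0.02 on the log2 scale. Trp63, the p63 transcription factor of basal and squamous cells, was at 0.580, 7.20 and 10.2 TPM in SRT1720 libraries 1, 2 and 3 and at 3.61, 0.261 and 10.7 TPM in Vehicle libraries 1, 2 and 3. The libraries lowest in Trp63 were those highest in Sprr1a. Klf4, a factor of epithelial barrier formation, was steadier, at 7.86, 6.92 and 11.2 TPM with SRT1720 and 5.91, 7.31 and 8.02 TPM with vehicle. Grhl3, a grainyhead factor that in mice is needed for the skin barrier, was at 0.226, 0.891 and 2.05 TPM with SRT1720 and 1.05, 0.152 and 1.01 TPM with vehicle. Notch1, a receptor that promotes suprabasal fate in epidermis, was at 0.667, 1.06 and 2.23 TPM with SRT1720 and 1.29, 1.38 and 3.08 TPM with vehicle. Libraries did not overlap between groups in 3 of the 31, Fosl2, Rara and Klf5, all lower with SRT1720, where 7.75% of all tested genes were. These 3 were picked out after their values were seen. Fosl2, an AP-1 subunit, was at 4.06, 3.58 and 3.86 TPM with SRT1720 and 4.90, 7.47 and 4.89 TPM with vehicle (log2 fold change −0.46, limma adjusted p = 0.389).

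Krt18, a keratin of luminal cells, had the same highest library in each group as Sprr1a. It was at 226, 57.6 and 25.3 TPM in SRT1720 libraries 1, 2 and 3 and at 48.0, 162 and 29.2 TPM in Vehicle libraries 1, 2 and 3. Krt8, its type II partner, was at 98.3, 20.03 and 54.5 TPM with SRT1720 and at 10.8, 50.6 and 43.9 TPM with vehicle. Krt8 was also highest in SRT1720 1 and Vehicle 2 within their groups, but Vehicle 3 was close to Vehicle 2. Of 14 luminal urothelium markers 8 were tested, and they did not share this order. Krt7 was highest in SRT1720 1 and Vehicle 2 as well, with Vehicle 1 close. Gata3, Foxa1 and Psca were instead highest in SRT1720 2 and Vehicle 1, the libraries high in Krt13. Krt19 was highest in SRT1720 1 and Vehicle 1. Upk1b was lowest in SRT1720 1 and Vehicle 2, at −1.37 and −1.13 from the group means (log2).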

How the data were processed

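RNA-seq values of 6 libraries were used, grouped by sample title. The authors' deposited table holds TPM values, per its name. STAR 2.6.0 and GRCm38 are listed in the submitters' processing notes, but the read counter, the strand setting and the gene lengths are not given in the sources that were used. Its columns sum to 161231 to 171577, not 1000000, so values were read as relative levels per length. Scaled to a sum of 1000000 every value would be larger. The minimum of 1 TPM and the levels called low therefore belong to the deposited scale. Symbols and positions came from GENCODE M21 (51719 of 51912 IDs matched). Whole reads were recovered by finding, for each gene, the length nearest its annotated exon length at which every value was whole within 0.01 reads. This held for 100% of IDs above 0 by construction, and for 39.9% at the exon length itself. For the others the length, and so the read number, can be off by a whole multiple. The length recovered for Sbsn exceeds its annotated span.

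Genes whose mean reached 1 TPM were tested with limma 3.58.1 in R 4.3.3 (mean trend) on log2(TPM + 1), SRT1720 minus Vehicle, with Benjamini-Hochberg adjustment at 0.05. Fold changes on this scale understate those of low genes. Single genes had exact two-sided permutation tests. The fit was tested on simulated data. Figures used matplotlib 3.10.9 under Python 3.11.15.

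Members and lists were chosen with earlier results of these data known. All 10 members are named. Of each list, at most 6 tested genes with the largest absolute fold change could be named, with Krt5, Krt14, Krt8, Krt18, Trp63, Klf4, Grhl3 and Notch1; other names were picked after their values were seen. The alternatives were other pseudocounts, filters and scaling, library weights, a replicate block, voom and leaving out libraries. The 95% intervals are limma's and come from the spread between libraries. Limits from counts of 0 cover counting error alone.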

Additional observations from a re-analysis of the deposited data

How the results depend on the processing

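Under all 15 alternatives the count of genes called by limma and the count of members called were 0. The median log2 fold change of the tested members ran from −0.40 to 0.18 when 1 library was left out, and was 0.36 at a mean of at least 5 TPM. No alternative moved it by more than the SD between libraries of 0.55. Leaving out 1 library turned the sign of every tested member, in fits that paired no libraries. Some libraries resembled one of the other group most, so such a fit can leave a library without its nearest match. The ranges were −0.59 to 1.85 for Krt4, −0.85 to 2.75 for Krt13 and −1.89 to 0.16 for Sprr1a. They were −0.73 to 0.37 for Tgm1, −0.89 to 0.048 for Sbsn and −0.10 to 0.21 for Ppl. The value of Tgm1 was 0.0093 with a pseudocount of 0.1 and 0.020 by voom. The value of Ppl was −0.0181 with library weights and −0.0027 without both SRT1720 3 and Vehicle 3. The cause was not tested. Same-numbered libraries were alike across groups for number 3 and not for numbers 1 and 2. Their deviations from the group means correlated at −0.20, −0.26 and 0.79 for numbers 1, 2 and 3. With the replicate number as a block, the count was 0 genes adjusted and 1133 unadjusted, and Sbsn had an adjusted p = 0.392 in limma (unadjusted p = 0.0241). Without both SRT1720 1 and Vehicle 2, 1026 of 9212 genes and 1 of 7 tested members had an unadjusted limma p under 0.05. None passed adjusted. That member was Ivl, which reached 1 TPM once these libraries, its lowest of each group, were left out. Without SRT1720 2 the unadjusted count over all genes was 523, and with library weights 2056. Depth limits Sprr3 and Sprr1b, whose libraries held at most 11 and 43 reads.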
